A study of Homo sapiens with 45 samples.

Results

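The Notch pathway was followed through 10 of its genes in cancer cell lines that had received 1 of 3 microRNAs. They were the ligands JAG1 and JAG2, the receptors NOTCH1, NOTCH2 and NOTCH3, the coactivators MAML1, MAML2 and MAML3, and the target genes HES1 and HEY1. The genes were taken by symbol, as every probe set annotated to 1 of these symbols alone, and they are 10 of the 19775 genes named on the array. They were read by 27 probe sets, of which 25 were bright enough to test. All 10 genes were tested.

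Each group held 3 arrays of total RNA from HEY or SKOV3 ovarian cancer cells or PC3 prostate cancer cells. Lipofectamine 2000 carried a precursor RNA into the cells at 33 nM, either that of one microRNA (miR-203a, miR-429 or miR-205) or a negative control (miR-NC). RNA was extracted after 48 h. Such precursors are synthetic RNAs that cells process into mature microRNA. A further 3 groups are labelled as untransfected cells of these lines, which makes 15 groups and 45 arrays. The genotypes of the lines, and whether the 3 arrays of a group came from separate cultures, are not given in the sources used here, so the spread behind each p-value is that between arrays, which may be technical. Values are log2 intensities, means are over 3 arrays with their SD, and a difference of 1 is a doubling. The gene HEY1 and the cell line HEY share only their letters.

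Notch receptors are membrane proteins that are cut when a Jagged or Delta ligand on a neighbouring cell binds them. The freed intracellular domain enters the nucleus, joins the DNA-binding protein RBPJ, and recruits a Mastermind-like coactivator (MAML), after which genes such as HES1 and HEY1 are transcribed. In carcinomas the pathway is linked to the transition between epithelial and mesenchymal states. The miR-200 family, to which miR-429 belongs, represses the transcription factors ZEB1 and ZEB2, and JAG1, MAML2 and MAML3 have been described as its targets.

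A microRNA finds its targets mainly through its seed, bases 2 to 8, and the mature sequences show whether the 3 share a seed. MicroRNAs with different seeds can still share a target gene, as miR-205 and the miR-200 family are both known to repress ZEB1. They were taken from RefSeq (GRCh38.p14), with the seed in capitals. The labels do not name the arm, and the usual mature strand of each is shown. The 2 family members of miR-429 that were not transfected are given for comparison.
hsa-miR-429, chr1:1169055-1169076, plus strand: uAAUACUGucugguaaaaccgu
hsa-miR-200b-3p, chr1:1167160-1167181, plus strand: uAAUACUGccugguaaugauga
hsa-miR-200c-3p, chr12:6963742-6963764, plus strand: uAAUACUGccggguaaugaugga
hsa-miR-203a-3p, chr14:104117469-104117490, plus strand: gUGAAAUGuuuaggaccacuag
hsa-miR-205-5p, chr1:209432166-209432187, plus strand: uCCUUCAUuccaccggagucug
The seed of miR-429 is shared with miR-200b-3p and miR-200c-3p. The seeds of miR-203a-3p and miR-205-5p differ from it and from each other. Target sites in the members' transcripts were not searched here.

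The arrays of the transfected groups were checked first. Within a transfected group, 2 arrays correlated at 0.981 or more over all probe sets, and array medians lay between 4.49 and 4.98. The lowest medians, up to 4.51, were those of PC3 with miR-429. ERBB2, which SKOV3 cells amplify, was 11.34 ± 0.08 in SKOV3 miR-NC and under 7 in the other miR-NC groups. HOXB13, a prostate gene, was 6.56 ± 0.63 in PC3 miR-NC and 6.70 ± 0.21 in SKOV3 miR-NC, so this marker did not set PC3 apart. The blood markers PTPRC, CD3E and CD14 stayed at or below 4.55 in all transfected groups. Of the endothelial markers CDH5 was 9.89 in HEY miR-NC and PECAM1 9.05 in PC3 miR-NC. Of the fibroblast markers LUM was 9.17 and COL1A1 12.46 in PC3 miR-NC. COL1A1 was also 10.06 in HEY miR-NC and 8.88 in SKOV3 miR-NC. In HEY miR-NC all 3 endothelial genes on the list (CDH5, KDR at 5.99 and PECAM1 at 6.49) lay above the median of all values, 4.89, and in PC3 miR-NC KDR and PECAM1 did, at 6.45 and 9.05. In HEY with miR-203a, then miR-205, then miR-429, CDH5 went from 9.89 to 11.00, 8.24 and 8.37, PECAM1 from 6.49 to 5.16, 4.86 and 3.96, and KDR from 5.99 to 5.64, 4.96 and 4.73. In the same order in PC3, LUM went from 9.17 to 7.18, 8.80 and 9.01, and COL1A1 from 12.46 to 11.21, 12.13 and 11.89. DCN, the other fibroblast gene, was at most 4.40 in HEY and PC3. Their part in the results was not tested. The arrays labelled untransfected go against their line labels: ERBB2 was 12.31 on those labelled HEY and 7.60 on those labelled SKOV3, and HOXB13 was 11.73 on those labelled SKOV3 and 4.36 on those labelled PC3. None of these arrays therefore serves as a control. Each microRNA was set against miR-NC, and also against the other microRNAs, of the same line.

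The GAPDH control probe sets, which read the completeness of the amplified RNA, moved with the treatment in HEY and PC3. The one at the 5-prime end of the transcript was level in SKOV3, with differences from miR-NC of -0.04 to 0.01. In HEY it differed by 0.58 with miR-203a, 3.92 with miR-205 and -2.11 with miR-429. In PC3 it differed by 4.95 with miR-203a, 3.66 with miR-205 and -0.50 with miR-429. The 3-prime probe set of the same gene moved less, by 1.48 and 1.31 in HEY with miR-205 and miR-429, and by 2.01 and 1.82 in PC3 with miR-203a and miR-205. Of the 50 member results in the 5 comparisons where the 5-prime probe set differed by less than 1, 10 were called. Of the 40 in the other 4 comparisons, 27 were called. Between 11.9% and 46.0% of all genes were called in the first 5, and between 48.4% and 65.8% in the other 4. The part of RNA completeness in the members' results was not tested. In bulk RNA, a change per cell and a change in the mix of cells cannot be told apart.

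The lines differed in these genes before any microRNA was added. Their miR-NC arrays also differed in the 5-prime GAPDH probe set, at 8.37 ± 0.29 in HEY, 13.74 ± 0.01 in SKOV3 and 5.04 ± 1.18 in PC3. The part of RNA completeness in the differences between lines was not tested. A gene is called changed where the adjusted p is under 0.05 in limma's moderated test, with Benjamini-Hochberg adjustment over 15599 genes. In miR-NC arrays, 6 members were higher and 2 lower in PC3 than in HEY, where 56.6% of all genes were called, 25.5% higher and 31.1% lower. Against SKOV3, 6 were higher and 3 lower in PC3 (81.2% of all genes, 44.2% higher and 36.9% lower). Between SKOV3 and HEY, 1 was higher and 4 lower in SKOV3 (78.4%, 35.0% higher and 43.4% lower). PC3 had the highest levels of JAG1, NOTCH3, MAML3, HES1 and HEY1, and SKOV3 had the highest level of JAG2. MAML2 was 9.42 ± 0.09 in HEY, 9.55 ± 0.14 in SKOV3 and 9.48 ± 0.06 in PC3, and no difference between lines was called. After quantile normalization SKOV3 was called higher than HEY, by 0.47, and PC3 lower than SKOV3 (-0.36). With the mean of both MAML2 probe sets the same pairs gave -0.66 and 0.78, both called.

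**Figure D1:**
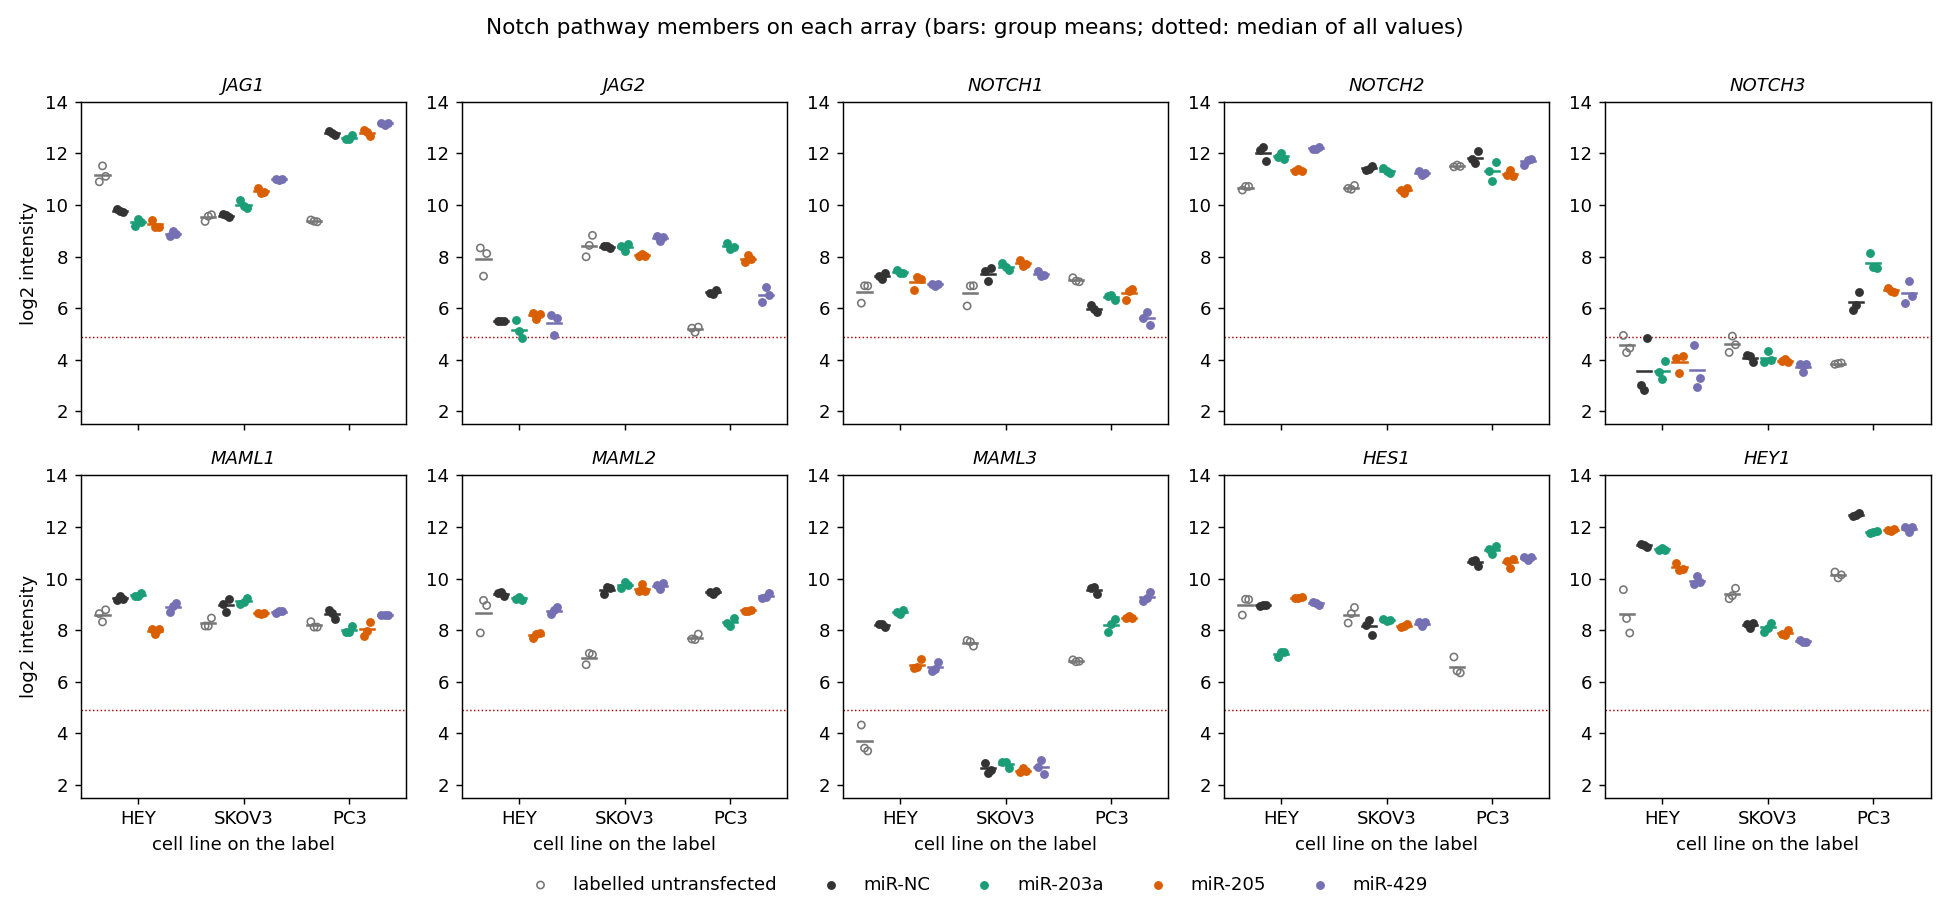
Log2 intensity of each member on all 45 arrays, by the cell line and treatment on the label; points are arrays, bars are group means, open points are arrays labelled untransfected, and the dotted line is the median of all values (4.89). From miR-NC (9.78) to miR-429 (8.89) JAG1 goes down in HEY, in SKOV3 it climbs from 9.59 to 11.01, and MAML3 lies below the dotted line in every transfected SKOV3 group, as the group means of NOTCH3 do everywhere but in transfected PC3.

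Against miR-NC of the same line, 37 of 90 member results were called, with between 1 and 9 of the 10 genes called in a comparison. With miR-203a, 1 member rose and 2 fell in HEY, where 13.2% of all genes were called (5.82% higher and 7.33% lower). In SKOV3, 1 rose and none fell (11.9%, 7.06% higher and 4.88% lower), and in PC3 4 rose and 5 fell (56.1%, 31.1% higher and 25.0% lower). With miR-205, none rose and 6 fell in HEY (65.8%, 33.6% higher and 32.2% lower). In SKOV3, 1 rose and 1 fell (25.6%, 16.8% higher and 8.81% lower), and in PC3 2 rose and 5 fell (48.4%, 28.7% higher and 19.7% lower). With miR-429, none rose and 5 fell in HEY (56.8%, 21.0% higher and 35.7% lower). In SKOV3, 1 rose and 1 fell (22.1%, 14.9% higher and 7.18% lower), and in PC3 1 rose and 1 fell (46.0%, 16.3% higher and 29.7% lower). As a description, the share of members called lay above that of all genes in HEY with miR-203a (3 of 10) and in PC3 with miR-203a (9 of 10) and miR-205 (7 of 10). It lay below in PC3 with miR-429 (2 of 10) and near it in the other 5 comparisons. These counts move with the processing. In HEY with miR-203a 1 of 10 was called in a fit of that line alone, with the replicate block and with the mean of the probe sets. In PC3 with miR-429 4 of 10 were called with the mean of the probe sets. In SKOV3 with miR-205 the count was 4 with the replicate block and 5 without the arrays labelled untransfected. Without probe sets that may cross-hybridise, JAG1, NOTCH2, NOTCH3 and HES1 were not tested. Counts under that setting cover fewer members and are not set beside these. The median difference of the 10 members was -0.60 in HEY with miR-205 against 0.06 for all genes, and -0.35 in PC3 with miR-203a against 0.06. The comparisons within a line share their miR-NC arrays, so an odd control array would move all of them.

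The microRNAs were also compared with each other within a line. In HEY, 2 members were higher and 5 lower with miR-205 than with miR-203a (63.4% of all genes were called, 32.9% higher and 30.5% lower). With miR-429, 1 was higher and 6 lower than with miR-203a (54.4%, 19.8% higher and 34.6% lower), and 3 were higher and 2 lower than with miR-205 (63.4%, 22.1% higher and 41.3% lower). In SKOV3, 1 was higher and 2 lower with miR-205 than with miR-203a (25.2%, 15.6% higher and 9.58% lower). There miR-429 differed from miR-203a in 1 higher and 1 lower member (19.6%, 12.5% higher and 7.08% lower) and from miR-205 in 3 higher members, JAG1, JAG2 and NOTCH2 (18.3%, 8.99% higher and 9.33% lower). In PC3, 2 members were lower with miR-205 than with miR-203a, NOTCH3 and HES1 (24.8%, 12.9% higher and 11.9% lower). With miR-429, 5 were higher and 3 lower than with miR-203a (70.3%, 27.0% higher and 43.3% lower), and 5 were higher and 2 lower than with miR-205 (65.6%, 22.9% higher and 42.6% lower). In both of these comparisons the higher members were JAG1, NOTCH2 and the MAML genes. The 5-prime GAPDH probe set differed between these groups too. Its PC3 means were 4.54 ± 1.02 for miR-429, 9.99 ± 0.38 for miR-203a and 8.70 ± 0.58 for miR-205. Its HEY means were 6.25 ± 0.16 for miR-429, 8.95 ± 0.40 for miR-203a and 12.28 ± 0.32 for miR-205. Those of SKOV3 lay between 13.70 and 13.75. The part of RNA completeness in the differences between microRNAs was not tested.

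**Figure D2:**
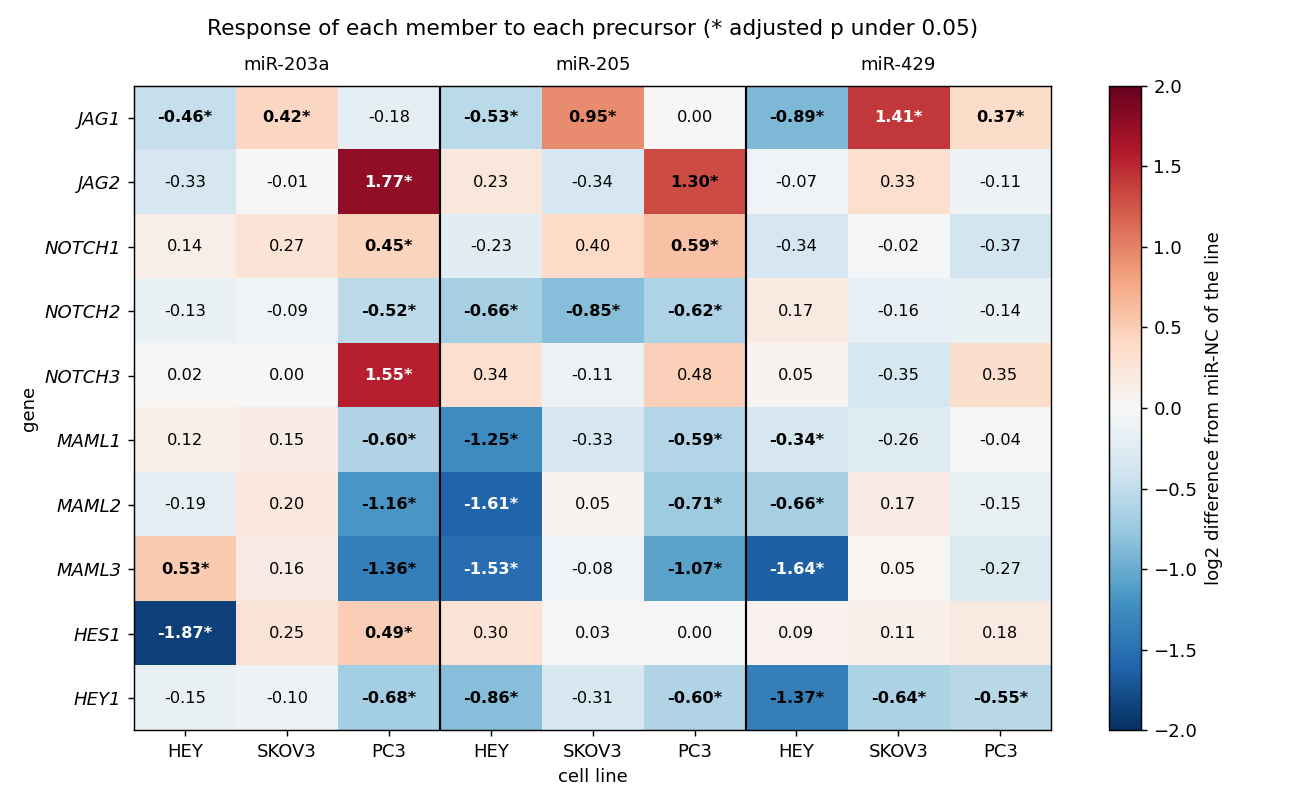
Log2 difference from miR-NC of each member in each line, by microRNA; red is higher, blue is lower, and an asterisk marks an adjusted p under 0.05. JAG1 has opposite signs in HEY and SKOV3 with all 3 microRNAs, NOTCH2 is lower in all 3 lines with miR-205, HEY1 is lower in all 3 lines with miR-429, and the MAML genes are lower in HEY with miR-205 and miR-429 and in PC3 with miR-203a and miR-205, with no call in SKOV3.

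Of the ligands, JAG1 moved in opposite directions in the ovarian lines. JAG1 is a Jagged ligand that activates Notch on neighbouring cells. In HEY it was 9.85, 9.77 and 9.74 on the miR-NC arrays, 9.18, 9.46 and 9.33 with miR-203a, 9.43, 9.16 and 9.16 with miR-205, and 8.81, 8.98 and 8.89 with miR-429. All 9 microRNA arrays lay below all 3 control arrays. The gene fell by 0.89 with miR-429 (95% confidence interval -1.13 to -0.66, adjusted p = 2.82e-08), a 1.86-fold decrease. It fell by 0.53 with miR-205 (adjusted p = 0.000103) and by 0.46 with miR-203a (adjusted p = 0.00474). The last call was lost in a fit of HEY alone. With miR-429 JAG1 was also lower than with miR-203a (-0.43, adjusted p = 0.00165) and than with miR-205 (-0.36, adjusted p = 0.00671).

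In SKOV3 the same probe set went the other way. JAG1 was 9.63, 9.62 and 9.53 on the miR-NC arrays, 10.20, 9.97 and 9.87 with miR-203a, 10.64, 10.47 and 10.51 with miR-205, and 11.03, 10.97 and 11.02 with miR-429. The 4 groups did not overlap and formed a ladder in that order. The rise with miR-429 was 1.41 (95% confidence interval 1.18 to 1.64, adjusted p = 6.66e-12), or 2.66-fold, and the rise with miR-205 was 0.95 (adjusted p = 4.06e-08), or 1.93-fold. JAG1 was higher with miR-429 than with miR-205 by 0.46 (adjusted p = 0.00308) and higher with miR-205 than with miR-203a by 0.53 (adjusted p = 0.000503). The rise with miR-203a was 0.42 (adjusted p = 0.0102). Without SKOV3 miR-NC replicate 3 its adjusted p was 0.0517, and without SKOV3 miR-203a replicate 1 it was 0.106. GAPDH was level in these groups. Of the 5 epithelial genes on the list, EPCAM climbed in the order of that ladder, with group means of 7.12, 7.76, 9.31 and 11.54. CDH1 had means of 4.03, 4.42, 4.78 and 8.59. All but the last lay below the median of all values, 4.89. Its miR-203a arrays overlapped those of miR-NC and of miR-205, so only the miR-429 group of CDH1 stood clear of the others. The 3 keratins did not follow that order, with KRT8 at 12.30, 12.08, 12.74 and 12.56, KRT18 at 12.50, 12.48, 12.91 and 12.81, and KRT19 at 9.67, 9.60, 10.59 and 10.38. Their part in the JAG1 result was not tested.

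PC3 started 3.01 above HEY and 3.20 above SKOV3 in JAG1 (adjusted p = 7.65e-23 and 3.92e-24). HEY and SKOV3 did not differ in it (adjusted p = 0.126). On the PC3 arrays JAG1 was 12.86, 12.79 and 12.72 with miR-NC and 13.19, 13.12 and 13.19 with miR-429. These groups did not overlap, and the rise was 0.37 (adjusted p = 0.00758). After array medians were subtracted it was 0.78, and after quantile normalization it was no longer called. With miR-203a the difference was -0.18 (adjusted p = 0.178) and with miR-205 it was 0.00 (95% confidence interval -0.23 to 0.23, adjusted p = 0.99). The response differed between lines with each microRNA in the moderated F-test, with adjusted p = 4.45e-13 for miR-429, 2.88e-09 for miR-205 and 0.000101 for miR-203a.

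JAG1 is read by 6 probe sets, which did not all move alike. The 3 brightest, 216268_s_at, 209099_x_at and 231183_s_at, were all lower in HEY and all higher in SKOV3 with each of the 3 microRNAs, and all these differences were called. In PC3 with miR-429 they gave 0.37, -0.05 and 0.43, and only the first and last were called. In PC3 with miR-203a 231183_s_at fell by 0.55, where the other 2 gave -0.18 and -0.09 without a call. The dimmer probe sets went both ways. In PC3 209097_s_at was called lower with miR-203a (1.77-fold), miR-205 (1.87-fold) and miR-429 (1.36-fold). With miR-203a there, 209098_s_at and 229924_s_at were called higher, 1.49-fold and 1.53-fold. In HEY with miR-205, 229924_s_at was called higher (1.61-fold) and 209098_s_at lower (1.43-fold). The probe set 209098_s_at, dim in HEY, rose by 0.80 there with miR-429 (adjusted p = 0.00133), against the sign of the bright ones. In SKOV3 it rose with them, by 0.93 with miR-429. With the mean of all JAG1 probe sets the differences with miR-429 kept their sign and call but shrank to -0.20 in HEY and 0.70 in SKOV3, and the fall in HEY with miR-203a (-0.17) and the rise in PC3 with miR-429 (0.02) were no longer called.

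JAG2, the other Jagged ligand, responded in PC3. It was 6.59, 6.57 and 6.72 on the PC3 miR-NC arrays, 8.51, 8.30 and 8.38 with miR-203a, 7.80, 8.07 and 7.91 with miR-205, and 6.24, 6.83 and 6.51 with miR-429. Only the groups of miR-203a and miR-205 stood clear of the control. The gene rose by 1.77 with miR-203a (95% confidence interval 1.36 to 2.18, adjusted p = 3.5e-09), or 3.41-fold, and by 1.30 with miR-205 (adjusted p = 1.88e-06), or 2.46-fold. Its second probe set, 209784_s_at, rose by 1.86 and 1.29. The 5-prime GAPDH probe set rose in the same groups, by 4.95 and 3.66. In HEY and SKOV3, JAG2 changed by -0.34 to 0.33 and no difference was called. The response differed between lines with miR-203a (adjusted p = 3.48e-07) and with miR-205 (adjusted p = 2.52e-05), and the test with miR-429 gave an adjusted p of 0.308. Without a microRNA, JAG2 was highest in SKOV3, at 8.39 ± 0.05, then PC3, at 6.63 ± 0.08, then HEY, at 5.50 ± 0.01, and each step was called.

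Of the receptors, NOTCH2 fell with miR-205 in all 3 lines. Over all genes, 2.50% were called lower in all 3 lines with miR-205. On the HEY arrays NOTCH2 was 12.11, 12.26 and 11.69 with miR-NC and 11.33, 11.41 and 11.33 with miR-205. In SKOV3 it was 11.35, 11.39 and 11.51 with miR-NC and 10.58, 10.48 and 10.64 with miR-205. In PC3 it was 11.79, 11.65 and 12.08 with miR-NC and 11.16, 11.34 and 11.14 with miR-205. In no line did the 2 groups overlap. The differences were -0.66 in HEY (adjusted p = 3.77e-05), -0.85 in SKOV3 (adjusted p = 4.2e-06) and -0.62 in PC3 (adjusted p = 0.000163), or 1.58-fold, 1.81-fold and 1.54-fold decreases. Whether this response differed between lines depends on the probe set. The F-test did not call it on the brightest one (adjusted p = 0.483, range of the 3 responses 0.23) or on 212377_s_at (0.22, adjusted p = 0.486). It did on 202445_s_at (range 1.58, adjusted p = 5.95e-07), on 210756_s_at (1.02, adjusted p = 0.0149) and with the mean of the probe sets (0.55, adjusted p = 0.000284).

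All 4 probe sets of NOTCH2 were called lower with miR-205 in each line. Of all probe sets tested, 32.0% were called lower in HEY, 8.19% in SKOV3 and 19.8% in PC3. Another bright probe set, 212377_s_at, fell by 1.15 in HEY, by 1.21 in SKOV3 and by 1.00 in PC3 (adjusted p = 1.65e-10, 6.93e-10 and 1.22e-08). The largest fall was that of 202445_s_at in HEY, 2.03 (adjusted p = 9.43e-14), and in SKOV3 this probe set was near the median of all values, at 5.08 with miR-NC. The human genome holds near-identical partial copies of NOTCH2, and which of them each probe set reads is uncertain.

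The response of NOTCH2 to the other microRNAs was narrower. On the brightest probe set it was lower with miR-205 than with miR-429 in HEY, SKOV3 and PC3 (miR-429 minus miR-205 0.84, 0.69 and 0.49, all called), while 202445_s_at gave 0.04 in HEY and 210756_s_at 0.31 in SKOV3 and 0.16 in PC3, none called. It was lower with miR-205 than with miR-203a in HEY (-0.54, adjusted p = 0.000578) and SKOV3 (-0.76, adjusted p = 2.47e-05). In PC3 these 2 microRNAs were not separated on the brightest probe set (-0.10, 95% confidence interval -0.37 to 0.17), but the other 3 were called lower with miR-205: 212377_s_at by -0.67, 202445_s_at by -0.52 and 210756_s_at by -1.05 (adjusted p = 7.12e-05, 0.0154 and 0.00131). There NOTCH2 also fell with miR-203a, by 0.52 (adjusted p = 0.000965). That was the only called member result against miR-NC whose arrays overlapped, at 11.32, 10.94 and 11.68 against 11.79, 11.65 and 12.08. With miR-429 no difference was called on the brightest probe set, but in HEY 202445_s_at fell from 9.84, 10.05 and 9.90 to 7.96, 7.80 and 8.06 (-1.99, adjusted p = 3.4e-13). The other 3 probe sets gave -0.23, -0.18 and 0.17 in that comparison. In SKOV3 with miR-429 212377_s_at was called lower, 1.41-fold. With the mean of the probe sets NOTCH2 was called lower with miR-429 in both HEY and SKOV3.

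NOTCH1 rose in PC3 with miR-205, by 0.59 (adjusted p = 0.00466), from 6.11, 5.98 and 5.87 to 6.31, 6.68 and 6.74. With miR-203a it rose by 0.45 (adjusted p = 0.0274), a call that was lost without any 1 of 4 arrays: PC3 miR-NC replicates 2 and 3 and PC3 miR-203a replicates 1 and 2, with adjusted p between 0.0558 and 0.095. Its second probe set, 223508_at, rose in both PC3 comparisons too, by 0.47 with miR-205 and by 0.51 with miR-203a. In HEY and SKOV3 the differences of NOTCH1 ranged from -0.34 to 0.40 and none was called, although 223508_at rose in HEY with miR-205 by 0.51. The response to miR-205 differed between lines (adjusted p = 0.00861), a call that was lost after quantile normalization (adjusted p = 0.0684), with the mean of the probe sets (adjusted p = 0.0823) and without HEY miR-205 replicate 1 (adjusted p = 0.0517). In miR-NC arrays NOTCH1 was 7.26 ± 0.11 in HEY, 7.34 ± 0.25 in SKOV3 and 5.98 ± 0.12 in PC3, which was lower than both. The difference between SKOV3 and HEY was not called (0.08), although it was after quantile normalization (0.39, adjusted p = 0.0437).

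NOTCH3 was measurable in PC3 alone among the miR-NC groups. There it was 5.95, 6.11 and 6.62 with miR-NC and 8.15, 7.59 and 7.58 with miR-203a, with no overlap. It rose by 1.55 (95% confidence interval 0.85 to 2.24, adjusted p = 0.000232), or 2.92-fold. In HEY and SKOV3 the mean of every transfected group was between 3.56 and 4.09, below the median of all values, so a fall there could not have been seen. With miR-205 and miR-429 in PC3 the differences were 0.48 and 0.35 and were not called (adjusted p = 0.264 and 0.424). The F-test between lines with miR-203a (adjusted p = 0.0104) was not called with the mean of the probe sets. NOTCH3 was higher with miR-203a than with miR-205 (by 1.07, adjusted p = 0.0193, as miR-205 minus miR-203a -1.07) and than with miR-429 (miR-429 minus miR-203a -1.20, adjusted p = 0.00251). Its other probe set, 203237_s_at, had group means of at most 4.69 in the transfected groups and was not called in any comparison with miR-NC.

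The coactivators MAML1, MAML2 and MAML3 fell together in HEY with miR-205 and in PC3 with miR-203a and miR-205. These proteins bridge the Notch intracellular domain to the histone acetyltransferases EP300 and CREBBP. In HEY with miR-205, MAML2 went from 9.44, 9.49 and 9.32 to 7.70, 7.84 and 7.88, a fall of 1.61 (adjusted p = 2.95e-10) or 3.05-fold. MAML3 went from 8.23, 8.23 and 8.12 to 6.53, 6.59 and 6.87, a fall of 1.53 (adjusted p = 5.8e-10) or 2.89-fold. MAML1 went from 9.18, 9.34 and 9.19 to 8.05, 7.85 and 8.05, a fall of 1.25 (adjusted p = 1.84e-10) or 2.38-fold. For each gene the 3 arrays lay below all controls by over 1 unit. The second MAML2 probe set, 235106_at, gave -0.40 there and was not called, and the mean of both was called lower (adjusted p = 7.49e-08).

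The same 3 genes fell in PC3 with miR-203a and miR-205. With miR-203a, MAML3 fell by 1.36 (adjusted p = 1.65e-08), from 9.63, 9.65 and 9.39 to 7.92, 8.23 and 8.43. MAML2 fell by 1.16 (adjusted p = 5.72e-07), from 9.48, 9.41 and 9.53 to 8.29, 8.17 and 8.48, and MAML1 fell by 0.60 (adjusted p = 0.000209). With miR-205 the falls were 1.07, 0.71 and 0.59 for MAML3, MAML2 and MAML1 (adjusted p = 2.25e-06, 0.000771 and 0.000304). No MAML gene differed between these 2 microRNAs in PC3. The largest difference was that of MAML2, 0.44 (95% confidence interval 0.09 to 0.79, adjusted p = 0.0562). On their brightest probe sets all 3 were higher in PC3 with miR-429 than with either of them. For MAML3 the sign turns with the mean of the probe sets, to -0.50 against miR-203a and -0.37 against miR-205, and for MAML2 235106_at gave 0.12 against miR-205, not called. With miR-429 none differed from miR-NC on its brightest probe set. The second MAML2 probe set, 235106_at, fell by 0.51 in PC3 with miR-429 (adjusted p = 0.0326). The dimmer MAML3 probe set 228508_at was called lower there too, 1.89-fold. For both genes the mean of the probe sets was called lower in that comparison.

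With miR-429, the MAML genes fell in HEY. MAML3 fell by 1.64 (adjusted p = 2.7e-10), to 6.43, 6.49 and 6.75, a 3.11-fold decrease. MAML2 fell by 0.66 (adjusted p = 0.00135), to 8.62, 8.77 and 8.88, and its dimmer probe set 235106_at fell by 1.64 (adjusted p = 4.05e-09). MAML1 fell by 0.34 (adjusted p = 0.0276), to 8.72, 8.92 and 9.05. The MAML1 call was lost without HEY miR-NC replicate 2 (adjusted p = 0.105) and without HEY miR-429 replicate 1 (adjusted p = 0.15), and also in a fit of HEY alone, with the replicate block, after quantile normalization and with array medians subtracted. MAML3 did not differ between miR-429 and miR-205 in HEY (-0.11, 95% confidence interval -0.45 to 0.23), whereas MAML1 and MAML2 were higher with miR-429 (by 0.91 and 0.95, both called). For MAML2 the direction depends on the probe set: 235106_at was lower with miR-429 (-1.25, adjusted p = 9.98e-07), and the mean of both gave -0.15. MAML3 rose by 0.53 in HEY with miR-203a (adjusted p = 0.0324), a call that was lost when any 1 of the 6 arrays was left out, with adjusted p between 0.0541 and 0.108.

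In SKOV3 no coactivator was called against miR-NC. MAML3 was near the bottom of the scale there, with miR-NC arrays at 2.87, 2.47 and 2.59, which is 5.55 below HEY and 6.91 below PC3 (adjusted p = 5.05e-26 and 7.5e-29), so a fall could not have been seen. MAML2 was as bright in SKOV3 as in the others, and its differences from miR-NC were 0.20 with miR-203a, 0.05 with miR-205 and 0.17 with miR-429, none called. For miR-205 the confidence interval was -0.30 to 0.40. MAML1 differed by -0.33 with miR-205 (adjusted p = 0.0615), and this was called lower in a fit of SKOV3 alone, with the replicate block, without the arrays labelled untransfected, with the stricter filter and after quantile normalization (-0.47), with adjusted p between 0.00708 and 0.0453. The F-test called a difference between lines for MAML2 and MAML3 with each microRNA, and for MAML1 with miR-203a and miR-205. The MAML2 call with miR-429 was lost after quantile normalization, and the MAML3 calls with miR-203a and miR-205 with the mean of the probe sets. Beside this, the 5-prime GAPDH probe set was level in SKOV3, and it moved by over 2 units in size in HEY with miR-205 and miR-429 and in PC3 with miR-203a and miR-205.

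One MAML3 probe set disagreed. The dim 228508_at, with group means near or below the median of all values, rose in PC3 with miR-203a by 0.98 (adjusted p = 1.53e-05) and in HEY with miR-205 by 0.55 (adjusted p = 0.00679), where the bright probe set fell. In PC3 it was also called higher with miR-205 (1.36-fold), and it was called lower with miR-429 (1.89-fold). The mean of the probe sets removed the MAML3 calls with miR-205 in HEY and with miR-203a and miR-205 in PC3 (-0.14, -0.07 and -0.20). That mean covers all 3 MAML3 probe sets, of which 2 passed the filter on dim probe sets. Both MAML2 probe sets fell in PC3 with miR-203a, by 1.16 and 1.11.

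**Figure D3:**
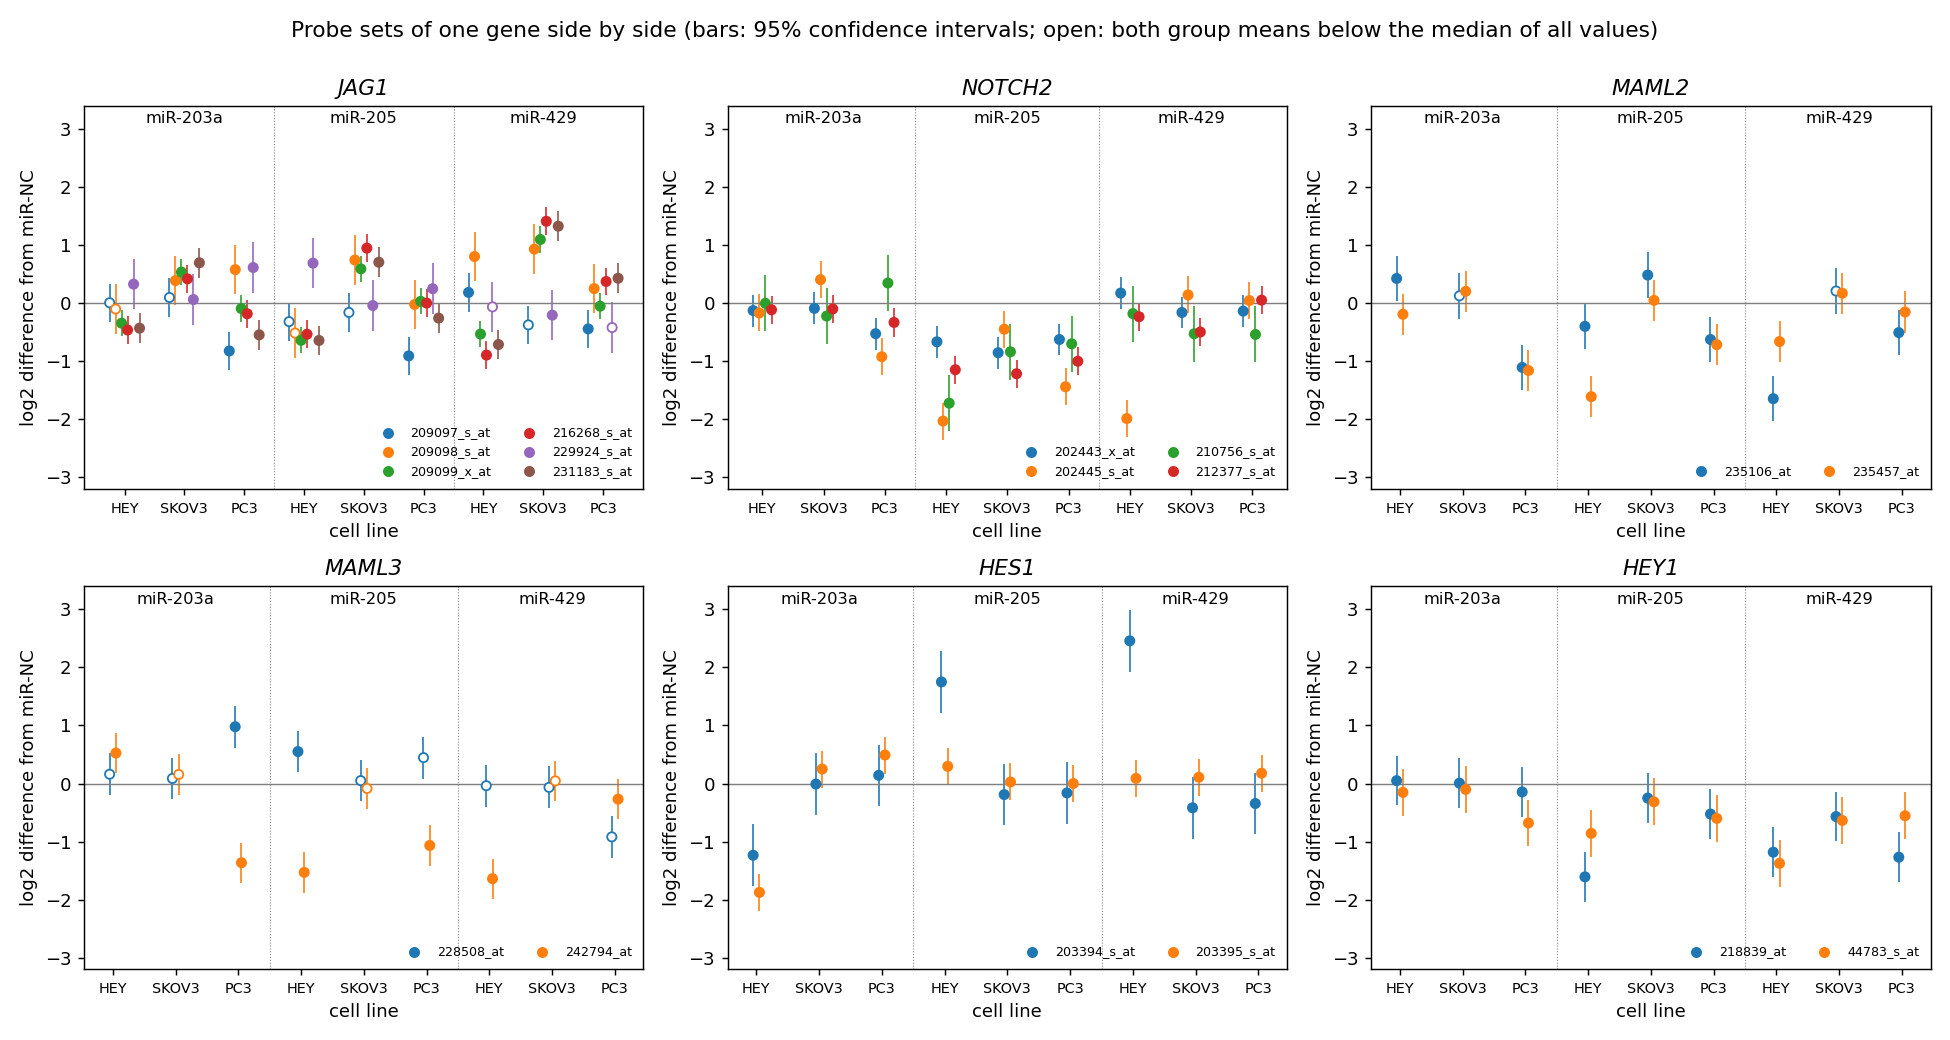
Log2 difference from miR-NC of every tested probe set of JAG1, NOTCH2, MAML2, MAML3, HES1 and HEY1, with 95% confidence intervals, by line and microRNA; an open point marks a probe set below the median of all values in both groups. The 4 NOTCH2 probe sets are all below 0 with miR-205, the 2 HES1 probe sets both fall in HEY with miR-203a (1.87 and 1.23) and lie apart there with miR-205 and miR-429, and the 3 brightest JAG1 probe sets keep together in HEY and SKOV3.

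Of the target genes, HES1 fell steeply in HEY with miR-203a. HES1 is a repressor that is transcribed directly upon Notch activation. It was 8.93, 8.96 and 8.99 on the miR-NC arrays and 6.95, 7.16 and 7.15 with miR-203a. The gap between the groups was many times their spread. The fall was 1.87 (95% confidence interval -2.19 to -1.56, adjusted p = 1.01e-10), or 3.66-fold, and it was called in each refit without 1 array. With the mean of all 3 HES1 probe sets, of which 2 passed the filter on dim probe sets, it was -0.98. The second probe set, 203394_s_at, fell by 1.23 (adjusted p = 0.00102). The 5-prime GAPDH probe set differed by 0.58 in this comparison. HES1 with miR-203a was also 2.17 below miR-205 and 1.96 below miR-429 in HEY (adjusted p = 1.27e-14 and 5.76e-13).

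The fall was not shared by the other lines. In PC3, HES1 rose with miR-203a by 0.49 (adjusted p = 0.00693), from 10.67, 10.70 and 10.49 to 11.14, 10.93 and 11.27, and in SKOV3 it differed by 0.25 (adjusted p = 0.395). The rise in PC3 was not called on 203394_s_at or with the mean of the probe sets. The response differed between lines (adjusted p = 5.58e-11). In HEY with miR-205 and miR-429 the 2 probe sets parted. The brighter one gave 0.30 and 0.09, not called, while 203394_s_at rose from 6.98, 7.01 and 7.21 to 9.16, 8.89 and 8.39 with miR-205 and to 9.22, 9.80 and 9.54 with miR-429. These rises were 1.75 and 2.46 (adjusted p = 3.26e-07 and 4.03e-10). Whether HES1 rose in HEY with these microRNAs thus depends on the probe set. In miR-NC arrays HES1 was highest in PC3, at 10.62 ± 0.11, then HEY, at 8.96 ± 0.03, then SKOV3, at 8.15 ± 0.30, and each step was called. The order of HEY and SKOV3 depends on the probe set: 203394_s_at was higher in SKOV3 by 1.12 (adjusted p = 0.000222), and the mean of all 3 gave 0.35.

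Among the 9 members with a promoter window, HES1 is also the one that holds a match to TGGGAA, the core of the sequence that RBPJ binds. Promoter windows of 250 bases before the start site were found in RefSeq for 9 of the 10 members, and both strands were searched (TGGGAA and TTCCCA). No window was found for HEY1, so its promoter was not searched. HES1 had 2 matches, beginning 84 and 70 bases before the start, and the other 8 windows had none. Over all 35116 windows of that length, 20.8% held at least 1 match and 2.9% held 2 or more. The window is shown because it carries those matches, in capitals, and a match is a description and not a shown binding site.
HES1, chr3:194135898-194136147, plus strand, GRCh38.p14: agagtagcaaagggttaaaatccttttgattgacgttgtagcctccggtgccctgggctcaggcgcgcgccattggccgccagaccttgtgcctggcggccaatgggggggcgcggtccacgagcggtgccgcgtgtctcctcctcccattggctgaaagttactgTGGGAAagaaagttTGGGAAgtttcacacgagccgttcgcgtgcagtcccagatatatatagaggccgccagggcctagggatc

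HEY1, a related repressor and Notch target, was lower with miR-429 in all 3 lines. Over all genes, 2.02% were called lower in all 3 lines with miR-429. In HEY it went from 11.34, 11.29 and 11.23 to 9.81, 10.08 and 9.85, in SKOV3 from 8.26, 8.08 and 8.27 to 7.62, 7.55 and 7.52, and in PC3 from 12.42, 12.46 and 12.54 to a mean of 11.92 ± 0.12. The groups did not overlap in any line. The differences were -1.37 (adjusted p = 2.51e-07), -0.64 (adjusted p = 0.0164) and -0.55 (adjusted p = 0.0205), or 2.59-fold, 1.55-fold and 1.47-fold decreases. The response differed between lines (adjusted p = 0.0174), a call that was lost after quantile normalization, with the mean of the probe sets and on the second probe set (adjusted p = 0.0699).

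The call in HEY was kept in each refit without 1 array. In SKOV3 the call was lost without miR-NC replicate 1, miR-NC replicate 3 or miR-429 replicate 3, with adjusted p between 0.0529 and 0.0566. In PC3 it was lost without miR-NC replicate 3 (adjusted p = 0.0576) or miR-429 replicate 2 (adjusted p = 0.0773). After array medians were subtracted the PC3 difference was -0.15 and was not called. The second HEY1 probe set, 218839_at, fell by 1.18 in HEY and by 1.27 in PC3 (adjusted p = 9.38e-06 and 9.59e-06) and differed by -0.57 in SKOV3, where it was not called.

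HEY1 also fell with the other microRNAs. With miR-205 it fell by 0.86 in HEY (adjusted p = 0.000248) and by 0.60 in PC3 (adjusted p = 0.0113), and both falls were called on the second probe set too, at 1.61 and 0.52. With miR-203a it fell in PC3 by 0.68 (adjusted p = 0.00362), while the second probe set gave -0.14 there and was not called. In HEY it was lower with miR-429 than with miR-203a (-1.22, adjusted p = 2.46e-06). It was also lower than with miR-205 (-0.52, adjusted p = 0.0223), but the second probe set gave 0.42 there, not called. In PC3 the brighter probe set did not separate the 3 microRNAs, with differences of 0.04 to 0.12 between them. On the second one HEY1 was lower with miR-429 than with miR-203a (-1.12, adjusted p = 1.72e-05) and than with miR-205 (-0.74, adjusted p = 0.00254). In miR-NC arrays HEY1 was 12.48 ± 0.06 in PC3, 11.29 ± 0.05 in HEY and 8.20 ± 0.11 in SKOV3, and each step was called.

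The target genes did not follow the ligands and coactivators in one direction. In HEY with miR-205, JAG1, NOTCH2, the 3 MAML genes and HEY1 were called lower, and HES1 differed by 0.30 on its brighter probe set (adjusted p = 0.0899). In PC3 with miR-203a, JAG2, NOTCH1, NOTCH3 and HES1 were called higher, while NOTCH2, the MAML genes and HEY1 were called lower. In SKOV3, in the fit over all groups, JAG1 was the member that rose, and NOTCH2 with miR-205 and HEY1 with miR-429 were the members that fell. HEY1 with miR-205 (-0.31, adjusted p = 0.265) was called lower there with the replicate block and without the arrays labelled untransfected, and MAML1 under the settings given above. NOTCH1 with miR-205 (0.40) was called higher there without the arrays labelled untransfected. In the moderated F-test, 7 members responded differently in the 3 lines to miR-203a, 6 to miR-205 and 4 to miR-429. Of all genes, 44.9%, 69.6% and 66.5% were called in those tests.

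ZEB1, a transcription factor that miR-205 and the miR-200 family are known to repress, fell by 2.22 in HEY, by 2.15 in SKOV3 and by 0.62 in PC3 with miR-429. With miR-205 it fell by 1.81, 1.37 and 0.98, all called. With miR-203a it was not called in HEY or SKOV3 (-0.15 and -0.01) and fell in PC3 by 1.28. JAG1 fell in HEY and rose in SKOV3 with the microRNAs that lowered ZEB1 in both lines, and also with miR-203a, with which ZEB1 was not called in either.

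Another 63 genes of the pathway were taken by list, covering the remaining ligands, NOTCH4, glycosyltransferases, cleavage enzymes, regulators, the nuclear complex, corepressors and further targets. Of the 58 that were tested, 7 rose and 6 fell in HEY with miR-203a, 17 rose and 24 fell with miR-205, and 11 rose and 22 fell with miR-429. In SKOV3 the counts were 6 and 2, 9 and 5, and 9 and 1. In PC3 they were 27 and 9, 19 and 11, and 11 and 23. In HEY, with miR-203a, then miR-205, then miR-429, the called share was 22.4%, 70.7% and 56.9%, against 13.2%, 65.8% and 56.8% of all genes. In SKOV3 it was 13.8%, 24.1% and 17.2% against 11.9%, 25.6% and 22.1%, and in PC3 62.1%, 51.7% and 58.6% against 56.1%, 48.4% and 46.0%. The median difference of these genes was 0.38 in PC3 with miR-203a and -0.13 in HEY with miR-205, and that of all genes was 0.06 in both.

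**Figure D4:**
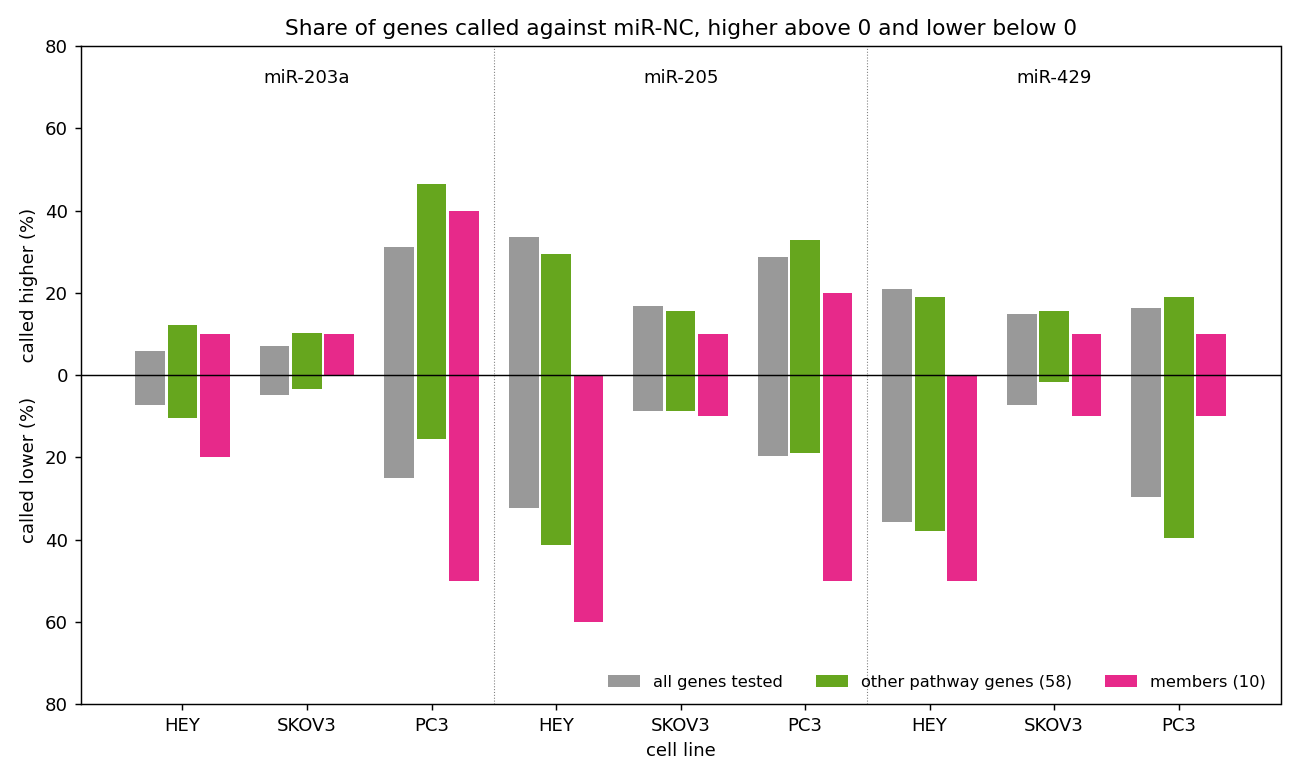
Percentage of the 10 members, of the 58 other pathway genes and of all 15599 genes tested that were called higher (above 0) or lower (below 0) than miR-NC, by microRNA and line. The bars below 0 reach further for the members than for all genes in HEY with miR-205 (6 of 10 against 32.2%) and in PC3 with miR-203a (5 of 10 against 25.0%) and miR-205 (5 of 10 against 19.7%), and also in HEY with miR-429 (5 of 10 against 35.7%) and miR-203a (2 of 10 against 7.33%) and slightly in SKOV3 with miR-205 and miR-429 (1 of 10 against 8.81% and 7.18%).

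Several of these genes moved alike in all 3 lines. Of all genes, 2.77% were called higher and 2.50% lower in all 3 lines with miR-205. These shares were 1.58% and 2.02% with miR-429, and 1.24% and 1.44% with miR-203a. With miR-205, KAT2B, an acetyltransferase of the Notch nuclear complex, fell by 3.22 in HEY, by 1.74 in SKOV3 and by 1.96 in PC3 (adjusted p = 8.15e-17, 5.35e-09 and 1.01e-10). NEURL1B, an E3 ligase of ligand endocytosis, fell by 2.30, 1.03 and 1.66, and NRARP, a feedback target of Notch, fell by 1.36, 0.61 and 0.57. NEURL1B ended at 3.57 in HEY and 3.56 in PC3, and KAT2B at 4.84 in SKOV3, below the median of all values, 4.89. FURIN, the protease that matures the receptor, rose by 1.07, 0.66 and 1.35. With miR-429 and with miR-203a, MIB1, an E3 ligase needed for ligand activity, fell in all 3 lines, by 0.65, 0.40 and 0.59 with miR-429 and by 0.61, 0.73 and 1.52 with miR-203a. ITCH, an E3 ligase that acts on Notch, rose with miR-429 by 0.92, 0.49 and 0.56, and CCND1 rose with miR-203a by 0.82, 0.66 and 1.52. HDAC1, a corepressor subunit, rose in all 9 comparisons, by 0.39 to 0.97.

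The largest called change of each list was often in HEY or PC3. With miR-203a these were in PC3: RFNG (1.97), FURIN (1.92), TLE2 (1.43), NCSTN (1.16), RBPJ (1.02) and NOTCH4 (0.63) rose, MIB1 fell by 1.52 and ID1 rose by 3.35. With miR-205 in HEY, POFUT1 (1.68), PSEN2 (1.63), TLE3 (1.48) and NOTCH4 (0.70) rose and MYC fell by 3.59, and in PC3 DTX3L rose by 2.63. With miR-429 in HEY, MIB2 fell by 2.12, EP300 by 1.47, SPEN by 1.19 and LFNG by 1.08, while PSENEN rose by 1.42 and ID1 by 2.29. In SKOV3 DTX3L rose by 1.69 with miR-429. In PC3 NOTCH4 fell by 0.78, from 4.53 to 3.75, both below the median of all values, 4.89. Some rises began below that median: TLE3 went from 3.47 to 4.94 and PSENEN from 3.98 to 5.39. With miR-203a in PC3, TLE2 started at 4.765 and NOTCH4 at 4.53. The HEY arrays of NOTCH4 with miR-205 overlapped those with miR-NC.

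Over the 12 transfected group means, each centred within its line, some genes had patterns close to the members'. These correlations are descriptions over groups that share arrays and scaling. For JAG1 the closest were ZNF587B (r = 0.94) and CEP57 (0.94), for JAG2 CRIP1 (0.98) and H1-10 (0.97), for NOTCH2 TGOLN2 (0.95) and CDC42BPA (0.94), and for NOTCH1 CYTH1 (0.94) and TMEM135 (0.93). For NOTCH3 they were RTN4RL1 (0.94) and GPR78 (0.94), for MAML1 ZBTB20 (0.97) and EEA1 (0.97), for MAML2 DDHD2 (0.98) and THOC2 (0.98), and for MAML3 TBC1D19 (0.96) and ZSCAN26 (0.96). For HES1 they were RASSF5 (0.97) and CCDC198 (0.87), and for HEY1 MRI1 (0.97) and C22orf39 (0.97). Among the members, MAML1 and MAML2 were the closest pair (0.92), followed by MAML2 and MAML3 (0.83) and by MAML3 and HEY1 (0.82).

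The arrays labelled untransfected are given by label only, since their marker genes go against it. On those labelled HEY, SKOV3 and PC3, JAG1 was 11.18, 9.52 and 9.38, JAG2 was 7.90, 8.42 and 5.19, and HES1 was 8.99, 8.60 and 6.57 on average. MAML3 was 3.69 on those labelled HEY, 7.51 on those labelled SKOV3 and 6.80 on those labelled PC3, while the transfected arrays with low MAML3 are those of SKOV3. NOTCH3 was below the median of all values in the 3 groups, and HEY1 was 8.64, 9.39 and 10.14.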

How the data were processed

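RNA from 45 samples, 15 groups of 3, was amplified from its 3-prime end with a NuGen Applause kit and hybridised to an Affymetrix array, per the labels' protocols. The deposited values are log2 intensities of 54675 probe sets that the authors normalized with RMA, per the submitters' processing notes; its version is not given in the sources used here. GEO's platform annotation gave 41097 probe sets 1 gene symbol and 1801 several. The values were used as deposited.

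A gene was read by its brightest probe set, and kept if its highest group mean passed the median of all values, 4.89. limma 3.58.1 in R 4.3.3 fitted all 15 groups at once (lmFit, eBayes; 30 residual and 5.24 prior degrees of freedom), and Benjamini-Hochberg adjustment ran over 15599 genes, or over 31153 probe sets where probe sets are named. A moderated F-test compared responses between lines. All tests are two-sided. Precision is limited by the number of arrays. The steps were tested on simulated data.

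Every member was described, and of the other pathway genes those called alike in all 3 lines, the largest called change of each list with each microRNA, and the 2 genes most like each member. Members and lists were chosen with earlier results of these data known. Alternatives changed the fit, the replicate block, the arrays labelled untransfected, normalization, filter, probe set rule, prior, a fold minimum, and left out each array in turn.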

Additional observations from a re-analysis of the deposited data

Results flagged for a closer look

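The response to a microRNA differed between the 3 lines in the moderated F-test (limma, Benjamini-Hochberg) for 17 of 30 combinations of member and microRNA, where 44.9% to 69.6% of all genes were called. The values are ranges, the highest minus the lowest of the 3 log2 responses. For JAG1 the range was 0.88 with miR-203a, 1.48 with miR-205 and 2.30 with miR-429. For JAG2 it was 2.10 with miR-203a and 1.63 with miR-205, both set by PC3. For NOTCH1 it was 0.83 with miR-205 and for NOTCH3 1.55 with miR-203a. For MAML1 it was 0.75 with miR-203a and 0.92 with miR-205. For MAML2 it was 1.36 with miR-203a, 1.66 with miR-205 and 0.83 with miR-429, and for MAML3 1.89, 1.44 and 1.68 in the same order. For HES1 it was 2.37 with miR-203a, and for HEY1 0.82 with miR-429. NOTCH3 is below the median of all values in HEY and SKOV3, and MAML3 is so in SKOV3, so falls there could not be measured.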

How the results depend on the processing

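Of the 37 called member results against miR-NC, 31 stayed called without any 1 array, and between 34 and 37 were called alike under a fit per line, the replicate block, leaving out the arrays labelled untransfected, quantile normalization, both filters, and the trended prior, against 35 with array medians subtracted, 29 with the mean of the probe sets and 5 with a 2-fold minimum. Members called changed, for example, from 2 to 1 in SKOV3 with miR-429, from 2 to 1 in PC3 with miR-429 and from 1 to 0 in SKOV3 with miR-203a without 1 array. Calls were also lost in HEY with miR-203a (MAML3, kept in 0 of 6 refits) and miR-429 (MAML1, 4 of 6). In PC3 with miR-203a NOTCH1 was kept in 2 of 6. Same-numbered arrays did not deviate together (r -0.152 to 0.126, at most 1 of 3 pairs over 0.1), so the replicate numbers were not taken as pairs. With the replicate block the members called were 1 in HEY with miR-203a, as in a fit per line, and 4 in SKOV3 with miR-205, which was 5 without the arrays labelled untransfected. With a 2-fold minimum they were 1 with miR-203a, 2 with miR-205 and 1 with miR-429 in HEY, and in that order 0, 0 and 0 in SKOV3, 1, 0 and 0 in PC3, and 3 and 3 for SKOV3 and PC3 against HEY in miR-NC. The mean of the probe sets gave 1 and 8 in HEY with miR-203a and miR-429 and 4 in PC3 with miR-429. Without probe sets that may cross-hybridise, which leaves 6 members, 22 of 23 results were called alike and the counts were 1 in HEY with miR-203a, 0, 0 and 1 in SKOV3, and 5 and 1 in PC3 with miR-203a and miR-429. For the lines in miR-NC they were 3, 5 and 5, and for the F-tests 4 with miR-203a and 2 with miR-429.

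Some signs turned, and the cause was not tested. With array medians subtracted, in PC3 with miR-429, MAML1 (202360_at) was 0.37 and the JAG1 probe set 209099_x_at was 0.36 against miR-NC and 0.34 against miR-205, and the NOTCH1 probe set 223508_at was 0.013 against miR-203a. With the mean of the probe sets, miR-429 against miR-NC gave -0.56 for NOTCH2 in HEY and -0.42 for HES1 in PC3. SKOV3 against HEY in miR-NC gave 0.35 for HES1 and -0.66 for MAML2, and PC3 against SKOV3 gave 0.78 for MAML2. In HEY, miR-429 gave -0.45 for NOTCH2 against miR-203a, and 0.12 for JAG1 and -0.15 for MAML2 against miR-205. In PC3 it gave -0.50 for HEY1 and -0.50 for MAML3 against miR-203a, and -0.42 for HES1 and -0.37 for MAML3 against miR-205. Without probe sets that may cross-hybridise, HEY1 with miR-429 was 0.42 against miR-205 in HEY, and -1.12 and -0.74 against miR-203a and miR-205 in PC3.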
